A study of Rattus norvegicus with 29 samples.

Results

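The genes described here encode 10 neuropeptides of primary sensory neurons, the cells whose bodies fill the dorsal root ganglia. They were taken by symbol (Calca, Calcb, Tac1, Sst, Gal, Npy, Vip, Adcyap1, Nppb and Cck) out of 16238 genes that the count files name through their RefSeq transcripts. Each gene was followed through the transcript with most reads over all libraries. Of the 10 genes, 8 had a read, 7 passed the filter on low counts, and Tac1 and Npy were listed at 0 in every library. The filter left 12556 of 18092 transcripts.

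RNA came from whole dorsal root ganglia of the cervical levels C6 to C8, which serve the forelimb, of elderly Lister Hooded rats, and was taken on the affected side. The arms were NT3 (unilateral cortical stroke, then infusion of neurotrophin-3 under the skin), vehicle (the same stroke, then infusion of vehicle) and sham, which the series text calls naïve. At week 11 there were 5 NT3, 5 vehicle and 5 sham rats, and at week 5 there were 5 NT3, 5 vehicle and 4 sham rats, all different animals with 1 library each. The labels mention infusion only for rats with stroke, so stroke and infusion cannot be told apart in a comparison with sham. Neurotrophin-3 is the growth factor that muscle and skin supply to TrkC-bearing proprioceptors and mechanoreceptors. The p-values below measure the spread between these rats. Levels are given as CPM, the reads of a transcript relative to the scaled total of reads in tested transcripts, and are compared across groups and never between genes, because no transcript lengths were at hand.

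Neuropeptides are cut from larger precursors, stored in dense-core vesicles and released from the central and peripheral endings of sensory neurons. CGRP (from Calca and Calcb) and substance P (from Tac1) mark the peptidergic nociceptors, which respond to nerve growth factor and cause dilation and leakage of vessels in the skin. Somatostatin and B-type natriuretic peptide are made in the mouse by a small class of itch neurons. In the rat, galanin, neuropeptide Y, vasoactive intestinal peptide (VIP), PACAP and cholecystokinin are low or restricted in intact ganglia and are known to rise when peripheral axons are cut.

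Assigned reads numbered between 16703574 and 22773108 in 28 libraries and 9555685 in vehicle rat 27 of week 11. The labelled tissue held its markers: all 9 genes listed for sensory neurons had reads, and their summed level was between 8010 and 13400 CPM. Snap25 was hardly counted among them, with 183 reads in all and a median of 0.292 CPM. The 6 markers listed for peptidergic nociceptors summed to between 1530 and 2580 CPM. The largest parts of this sum were Scn10a, with a median of 986 CPM, and Scn9a, with 461 CPM. Rat 27 also stood apart in genes of brain and spinal cord: the myelin gene Mobp was at 89.4 CPM there and at no more than 1.39 CPM in the other 28 libraries. Sham rat 8 of week 11 stood apart on the first principal component, which carried 44% of the variance among libraries. In bulk ganglia, fewer cells of a type and less RNA per cell cannot be told apart.

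The promoters of 3 members are shown because Calca and Sst ran against each other among rats of 1 group and Gal had the smallest p of the members between arms. Sst moved most closely with Calcb, which has no entry in the promoter table. Each is the 250 bases before the start of the gene in RefSeq's annotation of GRCr8, read 5′ to 3′ on the gene's strand. Calca lies at chr1:178317530-178317779 on the minus strand, Sst at chr11:90461296-90461545 on the plus strand and Gal at chr1:210084573-210084822 on the minus strand. Capitals mark the half-site of the cAMP response element (TGACG on either strand) and the TATA box (TATAAA on either strand).
Calca: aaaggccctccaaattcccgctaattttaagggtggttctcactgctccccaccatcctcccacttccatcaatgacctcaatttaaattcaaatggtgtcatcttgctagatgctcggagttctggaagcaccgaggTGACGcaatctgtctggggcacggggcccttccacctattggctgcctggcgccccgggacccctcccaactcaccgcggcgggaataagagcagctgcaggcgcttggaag
Sst: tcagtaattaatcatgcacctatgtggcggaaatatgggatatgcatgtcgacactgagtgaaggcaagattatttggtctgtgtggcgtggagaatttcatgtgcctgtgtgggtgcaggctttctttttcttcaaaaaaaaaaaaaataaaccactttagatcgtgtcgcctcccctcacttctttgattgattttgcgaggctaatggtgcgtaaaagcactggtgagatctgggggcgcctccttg
Gal: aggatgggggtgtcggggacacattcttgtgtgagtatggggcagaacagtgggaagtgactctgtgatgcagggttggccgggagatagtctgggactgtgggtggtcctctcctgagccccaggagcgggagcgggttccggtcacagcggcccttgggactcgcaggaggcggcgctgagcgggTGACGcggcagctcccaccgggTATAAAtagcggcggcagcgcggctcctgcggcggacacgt

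The half-site was found 1 time upstream of Calca, 112 bases before the start, and 1 time upstream of Gal, 63 bases before the start. The TATA box was found 41 bases before the start of Gal. Neither was found in the Sst window, which ends at the annotated start. Bases past that start were not searched, so a motif there would be missed in any member. Over the 8 members with an entry in the table, 4 had the half-site and 4 the TATA box, against 18.2% and 12.9% of 33469 promoters of that length. Both were counted at any position in the window. TATAAA nearest to the start lay at 41 bases in Gal, 48 in Vip, 208 in Nppb and 248 in Adcyap1. The counts are thus of the letters, not of boxes at a working position. The full element TGACGTCA was in 0 of the 8 windows and in 1.59% of all. The AP-1 motif TGACTCA was in 0 of the 8 windows and in 4.05% of all. These counts do not show that a gene lacks the element. Cck has no entry either.

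The arms did not differ past the threshold in any neuropeptide. In edgeR's quasi-likelihood test, 0 of the 7 tested members had a Benjamini-Hochberg adjusted p under 0.05 in NT3 against vehicle, vehicle against sham or NT3 against sham, with the weeks averaged, at week 11 or at week 5. The share of all 12556 transcripts called in each of these 9 comparisons was also 0%. DESeq2 likewise called 0 members in all 9, where it called 0.0319% of all transcripts in vehicle against sham over both weeks, 0.0796% at week 5 and 0% elsewhere. Limma voom with quality weights also called 0 members, with 0.0159% of all in vehicle against sham and 0.0319% in NT3 against sham at week 11, and with 0.287% in NT3 against vehicle and 8.59% in vehicle against sham at week 5. Over both weeks, voom called 0.287% of transcripts between vehicle and sham rats, and it called 0% in the other 4 comparisons. At an unadjusted p under 0.05, NT3 against vehicle had 0 members with the weeks averaged (3.32% of all transcripts), 1 at week 11 (1.52% of all) and 0 at week 5 (4.99% of all). Vehicle against sham had 2 with the weeks averaged (16.9% of all), 2 at week 11 (9.78% of all) and 0 at week 5 (8.38% of all). NT3 against sham had 2 with the weeks averaged (10.6% of all), 2 at week 11 (9.12% of all) and 1 at week 5 (2.4% of all). The comparisons of 1 week share rats: each arm stands in 2 of the 3.

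The median log2 fold change of the 7 members was -0.07 for NT3 against vehicle, -0.17 for vehicle against sham and -0.16 for NT3 against sham with the weeks averaged. The medians of all transcripts were -0.01, -0.01 and 0.01. Among the 7 tested members, 1 of 105 pairs of groups did not overlap in its range of CPM, where 1.65% of such pairs did not overlap over all tested transcripts. It was Calcb in NT3 rats at week 11 and sham rats at week 5. No gene's neighbouring groups in the order of mean levels were separated.

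**Figure D1:**
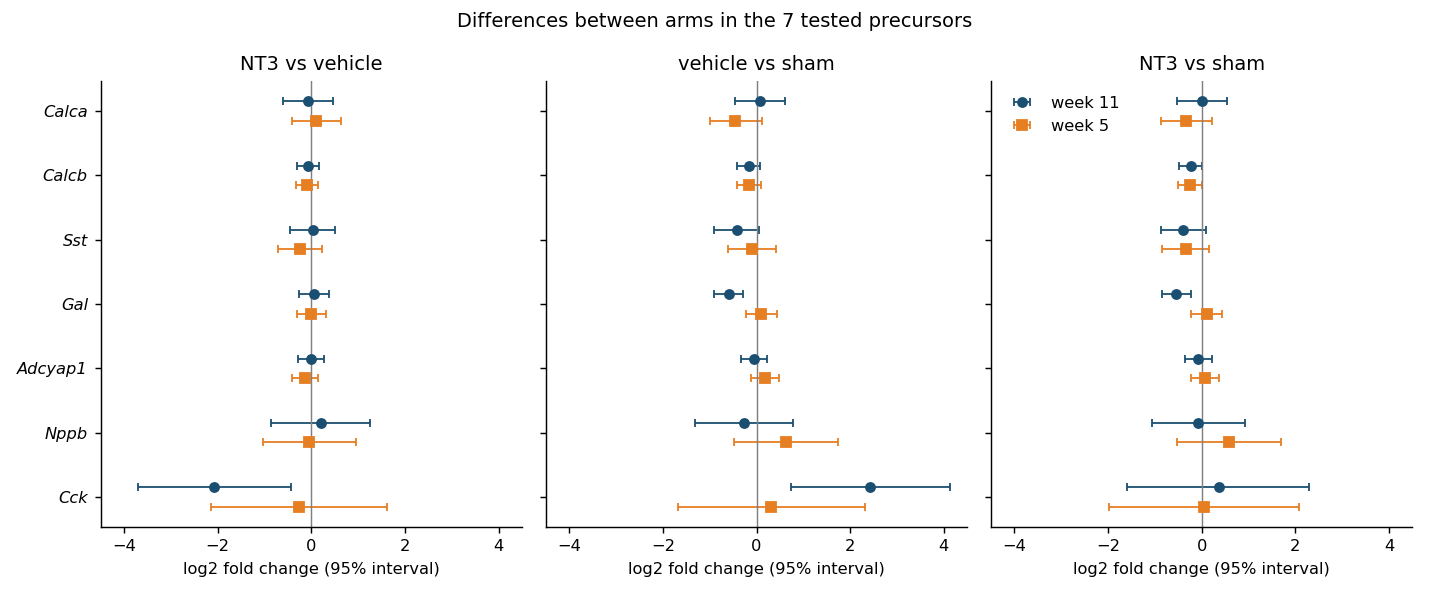
Log2 fold changes (x axis, with 95% intervals from edgeR) of the 7 tested precursors (y axis) between the arms, at week 11 (circles) and week 5 (squares). The intervals of Cck span several log2 units, while those of Calcb, Gal and Adcyap1 are narrow. Gal lies below 0 at week 11 in both comparisons with sham.

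Calca, followed here through NM_017338, encodes α-CGRP and, by another splice pattern, calcitonin. Which of these products NM_017338 encodes was not determined, so its levels cannot be read as those of the α-CGRP precursor. The gene is listed with 3 transcripts that share sequence, and it is under-counted here. The files set aside between 4.548% and 6.715% of reads as ambiguous, and the median gene with several transcripts collected 82.5 reads in all, against 7102.5 for the median gene with 1 transcript. Its main transcript had 2383 reads over 29 libraries, NM_001033955 had 58 and NM_001033956 had 0. Calcb (NM_138513), which encodes β-CGRP from a close paralog, is listed with 1 transcript and had 92446 reads. The files also set aside between 5029486 and 10279635 reads per library that did not align uniquely, and these counted for no transcript. Reads aligned equally well to both paralogs would be among them. Both genes are therefore uncertain, and the difference in reads says nothing of which precursor was more abundant.

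At week 11, Calca was at 3.94, 2.77, 4.92, 3.24 and 4.80 CPM in NT3 rats, at 4.22, 2.27, 3.95, 3.35 and 6.55 CPM in vehicle rats, and at 2.67, 2.61, 4.95, 4.86 and 4.46 CPM in sham rats. At week 5 it was at 5.24, 3.40, 3.36, 4.18 and 6.75 CPM in NT3 rats, at 2.54, 4.08, 5.53, 4.83 and 4.15 CPM in vehicle rats, and at 4.45, 7.45, 5.69 and 5.43 CPM in sham rats. All 6 groups overlapped, and the highest library was sham rat 60 of week 5. The sham rats of week 11 averaged 3.91 ± 1.17 CPM (SD, n = 5) and those of week 5 averaged 5.76 ± 1.25 CPM (SD, n = 4). That difference had a log2 fold change of -0.55 (SE 0.27) and an adjusted p of 0.988 in edgeR.

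Calcb was the best counted member, with between 1508 and 4394 reads in a library. At week 11 it was at 165, 166, 139, 141 and 160 CPM in NT3 rats, at 150, 155, 175, 184 and 144 CPM in vehicle rats, and at 237, 207, 135, 174 and 158 CPM in sham rats. At week 5 it was at 137, 161, 194, 164 and 162 CPM in NT3 rats, at 178, 169, 177, 157 and 186 CPM in vehicle rats, and at 180, 179, 232 and 188 CPM in sham rats. At both weeks the mean was lowest in NT3, next in vehicle and highest in sham, but within each week the ranges of the arms overlapped. Over both weeks Calcb averaged 159 ± 16.9 CPM in NT3 rats (SD, n = 10), 168 ± 15 CPM in vehicle rats (SD, n = 10) and 188 ± 33.0 CPM in sham rats (SD, n = 9).

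For NT3 against sham, Calcb had a log2 fold change of -0.25 (SE 0.08), with an unadjusted p of 0.00709 and an adjusted p of 0.461 in edgeR. Its value was -0.24 (SE 0.12) at week 11 and -0.25 (SE 0.12) at week 5. In voom the NT3 against sham value was -0.15 over both weeks and -0.07 at week 11. Vehicle against sham at week 11 was -0.17 in edgeR, 0.01 in voom and -0.05 without rats 8 and 27. The sham rats of week 11 averaged 169 ± 30.4 CPM without rat 8 (SD, n = 4), in place of 182 ± 40.3 CPM (SD, n = 5). Against vehicle the NT3 rats differed by -0.08 on the log2 scale, with a 95% interval of -0.25 to 0.09. The share of reads that fell in no annotated feature averaged 32.53 ± 1.78% in NT3 libraries (n = 10), 33.41 ± 2.44% in vehicle libraries (n = 10) and 30.61 ± 2.84% in sham libraries (n = 9), with SDs. With that share in the model and the weeks averaged, the NT3 against sham value was -0.14. The vehicle against sham value was then -0.01 in place of -0.17. Its part in the result was not tested beyond this.

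Tac1, the precursor of substance P and neurokinin A, is listed with 4 transcripts, and all 4 were at 0 in all 29 libraries. Npy, the precursor of neuropeptide Y, is listed with 1 transcript, NM_012614, also at 0 throughout. Genes that every cell uses, such as the ribosomal protein gene Rpl37a and the respiratory chain gene Ndufa1, were at 0 too. Among genes with several transcripts 20.4% had no read, against 10.3% of genes with 1 transcript. A listed 0 is therefore no measurement of these precursors, and no limit or fold change is given for them.

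Sst (NM_012659) encodes somatostatin, an inhibitory peptide. In the week 11 rats it was at 50.2, 47.3, 37.5, 42.8 and 44.9 CPM in NT3 rats, at 34.1, 44.0, 52.6, 54.7 and 32.8 CPM in vehicle rats, and at 94.2, 60.6, 28.9, 66.2 and 41.9 CPM in sham rats. In the week 5 rats it was at 28.6, 50.1, 56.7, 49.6 and 39.0 CPM in NT3 rats, at 74.1, 45.8, 42.0, 50.4 and 52.9 CPM in vehicle rats, and at 48.3, 47.6, 75.7 and 55.5 CPM in sham rats. The sham rats of week 11 held both the highest library of all, rat 8, and nearly the lowest, rat 54, so all groups overlapped. With the weeks averaged, NT3 rats differed from sham rats by -0.37 (SE 0.17) on the log2 scale, with an unadjusted p of 0.0406 and an adjusted p of 0.461 in edgeR. It was -0.25 without rat 8, -0.15 with the unannotated share of reads in the model and -0.11 in voom. At week 11 that value was -0.39, and it was -0.15 without rat 8, -0.55 without rat 54, -0.10 with the unannotated share in the model and 0.03 in voom. Vehicle rats differed from sham rats by -0.42 at week 11, by -0.18 without rat 8, by -0.59 without rat 54, by 0.02 with the unannotated share in the model and by -0.07 in voom.

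Nppb (NM_031545), which encodes B-type natriuretic peptide, had 197 reads in all, between 2 and 18 in a library. At week 11 it was at 0.32, 0.141, 0.23, 0.989 and 0.228 CPM in NT3 rats, at 0.285, 0.515, 0.278, 0.35 and 0.268 CPM in vehicle rats, and at 0.485, 0.167, 0.385, 0.26 and 0.69 CPM in sham rats. At week 5 the range was 0.146 to 0.647 CPM in NT3 rats, 0.168 to 0.734 CPM in vehicle rats and 0.102 to 0.527 CPM in sham rats. The highest library, NT3 rat 83 of week 11, lay far above the other 4 of its group. With the weeks averaged, the 95% interval of NT3 against vehicle was -0.64 to 0.80 on the log2 scale, so a difference of the size seen for most members was not detectable at this depth.

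Gal (NM_033237) encodes galanin, a peptide that rises strongly in rat sensory neurons after nerve section. At week 11 it was at 7.83, 9.92, 9.43, 8.19 and 7.94 CPM in NT3 rats, at 7.76, 7.83, 8.41, 10.4 and 7.25 CPM in vehicle rats, and at 11.6, 15.9, 9.78, 13.5 and 12.0 CPM in sham rats. Both stroke arms lay mostly below sham, and each overlapped with sham in 1 rat only, NT3 rat 69 and vehicle rat 50, both above sham rat 54. At week 5 it was at 9.75, 9.58, 10.4, 12.9 and 11.3 CPM in NT3 rats, at 15.6, 8.62, 10.2, 7.93 and 11.3 CPM in vehicle rats, and at 8.70, 10.1, 9.65 and 11.6 CPM in sham rats. At week 5 the arms overlapped through most of their ranges.

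The week 11 means of Gal were 8.66 ± 0.949 CPM in NT3 rats, 8.33 ± 1.23 CPM in vehicle rats and 12.6 ± 2.31 CPM in sham rats (SD, n = 5 each). Vehicle against sham had a log2 fold change of -0.59 (SE 0.15, 95% interval -0.91 to -0.28), an unadjusted p of 0.000688 and an adjusted p of 0.507 in edgeR. It ranked 6 among 12556 transcripts by p in a comparison where 0% were called. NT3 against sham, which shares the sham rats, had -0.54 (SE 0.15), an unadjusted p of 0.0016 and an adjusted p of 0.505. NT3 against vehicle had 0.05, with a 95% interval of -0.26 to 0.37. Neither comparison with sham passed the threshold in edgeR, DESeq2 or limma voom.

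At week 5 the values of Gal were 0.10 (SE 0.16) for vehicle against sham and 0.11 (SE 0.16) for NT3 against sham. The difference between the weeks was -0.69 (SE 0.22, unadjusted p 0.0045, adjusted p 0.987 in edgeR) for vehicle against sham and -0.64 (SE 0.22, unadjusted p 0.00751, adjusted p 1.0) for NT3 against sham. Leaving out any 1 library kept the week 11 value of vehicle against sham between -0.68 and -0.49. With the unannotated share of reads in the model it was -0.43. Of 18 tested genes known to rise after axon injury, 9 were higher and 9 lower in vehicle against sham at week 11, and 0 were called. The summed level of that list at week 11 had medians of 1270 CPM in NT3, 1210 CPM in vehicle and 1400 CPM in sham rats. Its ranges overlapped, at 1220 to 1290, 1090 to 1370 and 1100 to 1550 CPM. The relation of these genes to Gal was not tested.

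**Figure D2:**
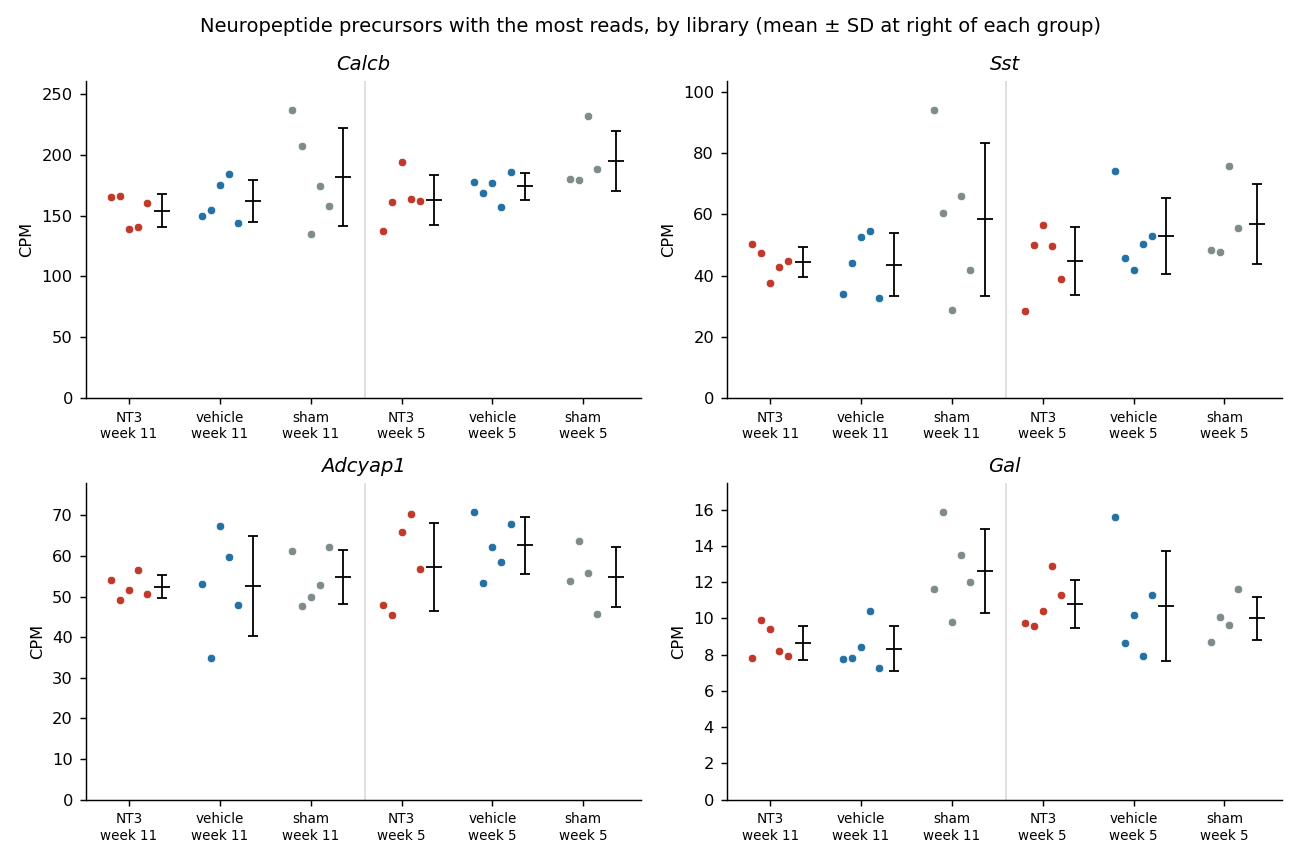
Level (y axis, CPM) of the 4 best counted precursors in each library by group (x axis), with the mean and SD of each group in black. Gal lies between 7.25 and 10.4 CPM in the NT3 and vehicle rats of week 11 and between 9.78 and 15.9 CPM in the sham rats of week 11. These ranges overlap narrowly, and the other genes also overlap across all arms within a week.

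Adcyap1 (NM_016989) encodes PACAP, which raises cAMP in its target cells. The week 11 levels were 54.0, 49.1, 51.7, 56.4 and 50.5 CPM in NT3 rats, 53.0, 34.9, 67.3, 59.7 and 47.9 CPM in vehicle rats, and 61.3, 47.7, 49.8, 52.8 and 62.3 CPM in sham rats. At week 5 it was at 48.0, 45.5, 65.8, 70.2 and 56.7 CPM in NT3 rats, at 70.9, 53.4, 62.3, 58.5 and 67.9 CPM in vehicle rats, and at 53.9, 63.7, 55.8 and 45.8 CPM in sham rats. The arms lay close together, with an average of 54.8 ± 7.86 CPM in NT3 rats (SD, n = 10), 57.6 ± 10.8 CPM in vehicle rats (SD, n = 10) and 54.8 ± 6.52 CPM in sham rats (SD, n = 9). The lowest library was rat 27. Over both weeks the 95% interval of NT3 against vehicle was -0.27 to 0.13 on the log2 scale.

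Vip (NM_053991), the precursor of VIP, had 137 reads over 29 libraries and did not pass the filter, so it was not tested. The week 11 levels were 0.0533, 0.376, 0.506, 0.055 and 0.114 CPM in NT3 rats, 0.057, 2.06, 0.0557, 0.2 and 0.107 CPM in vehicle rats, and 0.0606, 0.333, 0.33, 0.174 and 0.159 CPM in sham rats. At week 5 the range was 0.0486 to 0.292 CPM in NT3 rats, 0.0564 to 0.866 CPM in vehicle rats and 0.05 to 0.406 CPM in sham rats. Vehicle rat 27 of week 11, with 20 reads, and vehicle rat 1 of week 5, with 16, held the highest levels, and all groups overlapped.

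Cck (NM_012829) encodes cholecystokinin, a peptide abundant in brain cortex, and had 262 reads, of which 76 were in rat 27. At week 11 it was at 0.373, 0.517, 0.276, 0.33 and 0.343 CPM in NT3 rats, at 0.114, 7.83, 0.501, 0.7 and 0.107 CPM in vehicle rats, and at 0.424, 0.445, 0.0, 0.26 and 0.318 CPM in sham rats. At week 5 the range was 0.22 to 0.535 CPM in NT3 rats, 0.115 to 1.03 CPM in vehicle rats and 0.203 to 0.5 CPM in sham rats. A single vehicle rat stood above all others. Without it, Cck averaged 0.356 ± 0.294 CPM in the other 4 vehicle rats of week 11 and 0.29 ± 0.179 CPM in the 5 sham rats of week 11 (SDs).

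With rat 27, Cck had the largest fold changes of any member. They were -2.07 (SE 0.79, unadjusted p 0.0147, adjusted p 1.0 in edgeR) for NT3 against vehicle and 2.43 (SE 0.83, unadjusted p 0.00695, adjusted p 0.507) for vehicle against sham, both at week 11. Without rat 27 they were 0.03 and 0.33. In that library Mobp was at 89.4 CPM, against at most 1.39 CPM in the other 28. Nrgn, a gene of forebrain neurons, was at 64.9 CPM in rat 27 and at no more than 2.65 CPM in the rest. Of the 8 genes listed for brain and spinal cord, Aqp4 was listed at 0 in every library. The list summed to 769 CPM in rat 27, and the groups spanned 381 to 450 CPM in NT3 rats of week 11, 339 to 769 CPM in vehicle rats of week 11 and 398 to 551 CPM in sham rats of week 11. At week 5 they spanned 372 to 450 CPM in NT3 rats, 350 to 415 CPM in vehicle rats and 367 to 456 CPM in sham rats. The largest part of that sum was Slc17a7, at 266 to 417 CPM over all libraries, and next Gfap, with a median of 78.3 CPM. Mobp, Nrgn and Olig2 had medians of 0.999, 0.9 and 1.53 CPM. Between week 11 and week 5 in vehicle rats, 6 of 6 tested genes of the list were higher, as were 44.9% of all transcripts. Of these genes 1, Mobp, was called by edgeR, which called 0.844% of all transcripts. Apart from rat 27, vehicle rats held 0.685 to 1.29 CPM of Mobp at week 11 and 0.616 to 1.39 CPM at week 5. Rat 1 was the next highest in Cck at 1.03 CPM and in Vip at 0.866 CPM. It was also the next highest in Nrgn at 2.65 CPM, above 1.26 CPM in the rest, while its Mobp of 1.08 CPM lay within the range of the others. The part of these genes in the Cck and Vip values was not tested.

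**Figure D3:**
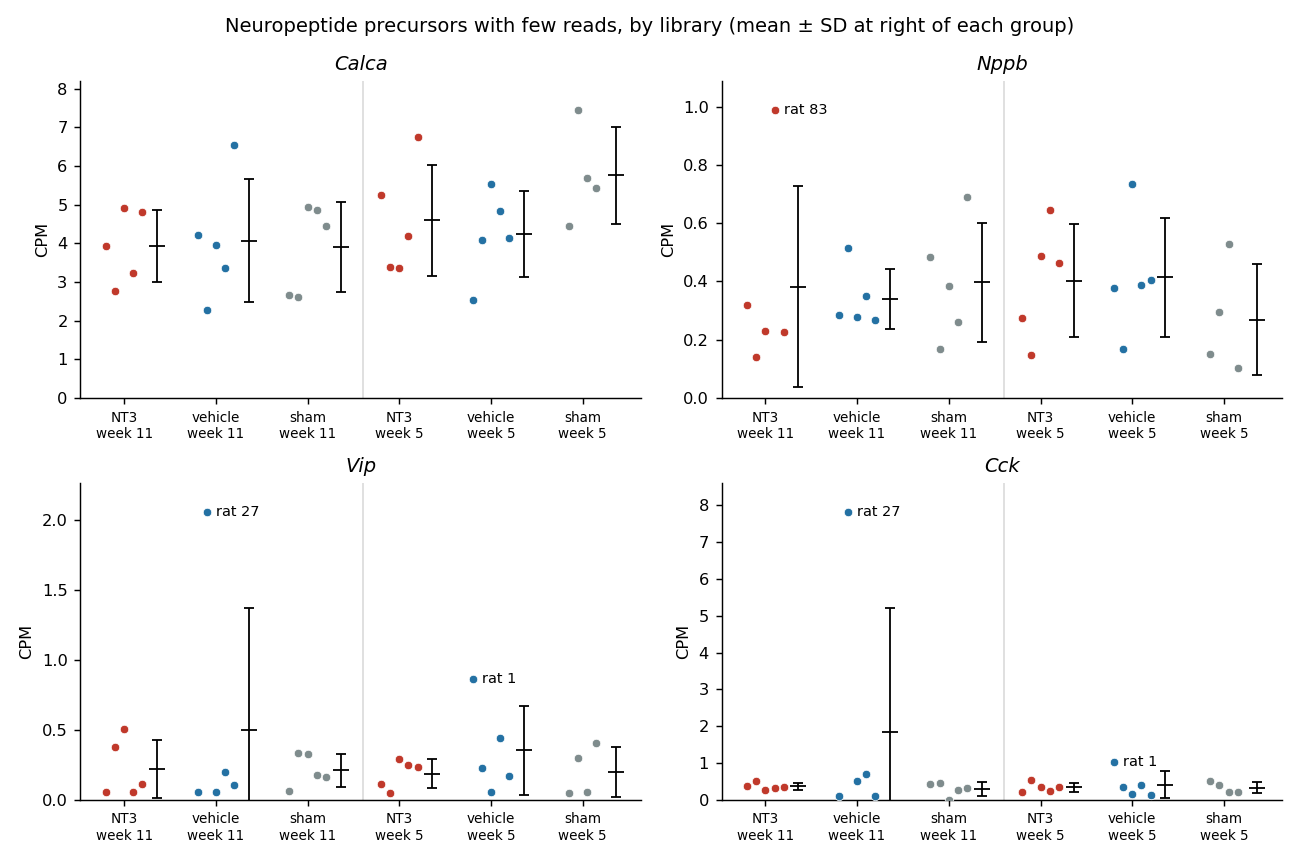
Level (y axis, CPM) of the 4 precursors with few reads in each library by group (x axis), with the mean and SD of each group in black. Error bars that would pass below 0 stop at the axis. Rat 27 (vehicle, week 11) holds 7.83 CPM of Cck and 2.06 CPM of Vip, and rat 83 (NT3, week 11) holds 0.989 CPM of Nppb.

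**Figure D4:**
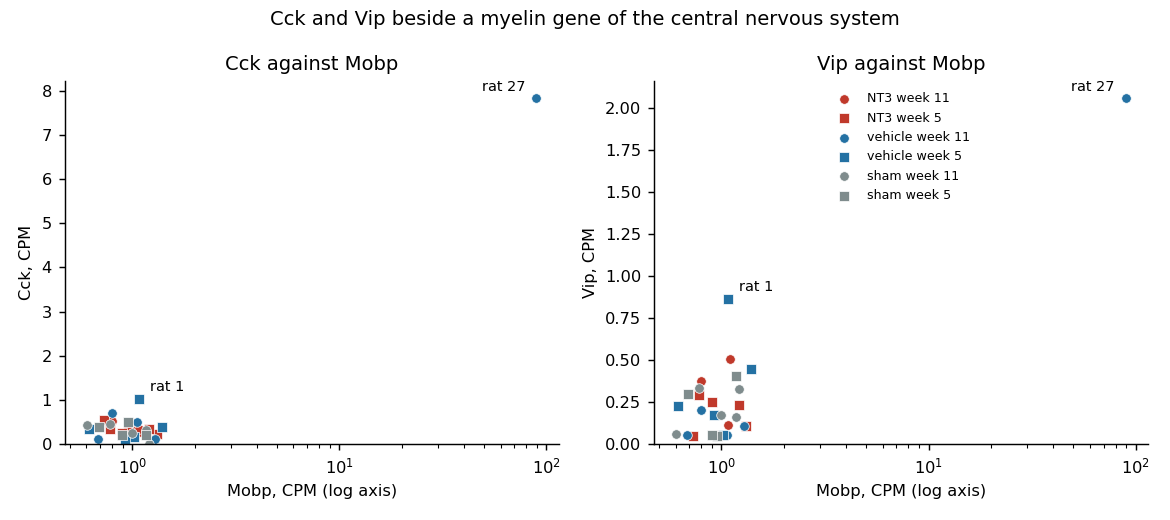
Cck and Vip (y axes, CPM) against the myelin gene Mobp (x axis, CPM on a log scale) in 29 libraries, coloured by arm and shaped by week. Rat 27 is alone at 89.4 CPM of Mobp with the highest Cck and Vip, and rat 1 is next in Vip and Cck with Mobp at 1.08 CPM and, not plotted, Nrgn at 2.65 CPM.

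Markers of sympathetic neurons, which also make neuropeptide Y and could enter the dissection, were followed as a further list. Th had 1477 reads in all, with its highest level, 7.31 CPM, in rat 27. Slc6a2 had 193 reads, Dbh 72, Phox2a 11 and Hand2 9. The list summed to 63.9 to 93.0 CPM in NT3, 68.9 to 84.7 CPM in vehicle and 62.4 to 99.4 CPM in sham rats at week 11. At week 5 it summed to 63.6 to 104 CPM in NT3, 90.8 to 125 CPM in vehicle and 84.0 to 93.2 CPM in sham rats. Most of that sum was Chrna3, at 59.1 to 123 CPM. The summed levels of vehicle rats of week 11 lay below those of week 5 without overlap. Of the 3 tested markers, however, 2 were higher at week 11 and 1 lower, with a median log2 fold change of 0.51 and 0 called. The part of these markers in the results was not tested.

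Between week 11 and week 5, 0 of the 7 members were called in any arm by edgeR or DESeq2, and DESeq2 called 0% of all transcripts in NT3 rats, 1.6% in vehicle rats and 0.00796% in sham rats. Voom called 2 in sham rats, Calcb at -0.26 (adjusted p 0.0331) and Gal at 0.35 (adjusted p 0.046), where it called 17.6% of all transcripts. Over all transcripts edgeR called 0% in NT3 rats, 0.844% in vehicle rats and 0% in sham rats. At an unadjusted p under 0.05 there were 0 members in NT3 rats (1.58% of all transcripts), 2 in vehicle rats (8.82% of all) and 1 in sham rats (3.73% of all). The 2 in vehicle rats were Cck, which rests on rat 27, and Gal, which differed by -0.36 (SE 0.15, unadjusted p 0.0263, adjusted p 0.422 in edgeR). Gal had the same sign in NT3 rats (-0.31, SE 0.15) and the opposite one in sham rats (0.33, SE 0.16), with unadjusted p-values of 0.0506 and 0.0505. Without rat 1 the vehicle value was -0.19. In sham rats the member was Calca. The peptidergic markers summed to 1780 to 2360 CPM in vehicle rats of week 11 and 2180 to 2580 CPM in vehicle rats of week 5, and the non-peptidergic ones to 1160 to 1360 CPM and 1480 to 1740 CPM in the same groups. Their part in the differences over time was not tested.

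Sst and Calcb varied together among rats of the same group. After the mean of each group was taken from the log2 CPM, their Pearson r was 0.87 and Spearman's rho 0.83 over 29 libraries, and r was 0.81 without the 2 rats farthest out in Calcb. The rat with most Calcb also had most Sst in 4 of 6 groups, and the rat with least Calcb had least Sst in 5 of 6. Calca ran the other way: r was -0.60 with Sst and -0.49 with Calcb. Gal followed weakly, with r of 0.46 with Sst and 0.39 with Calcb. Adcyap1 had r of 0.32 with Sst and with Calcb.

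These correlations are descriptions, since the genes of a library share its depth, RNA quality and dissection. The first principal component had r of 0.73 with Sst, 0.70 with Calcb, 0.35 with Gal, 0.02 with Adcyap1 and -0.75 with Calca. The unannotated share of reads had r of -0.66 with Sst, -0.70 with Calcb and 0.51 with Calca. It ranged from 25.374% in sham rat 8 to 38.28% in rat 27. Without these 2 rats, r between Sst and Calcb was 0.83 and between Sst and Calca -0.60, while r between the unannotated share and Calca was 0.82. The part of either measure in the correlations was not tested.

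**Figure D5:**
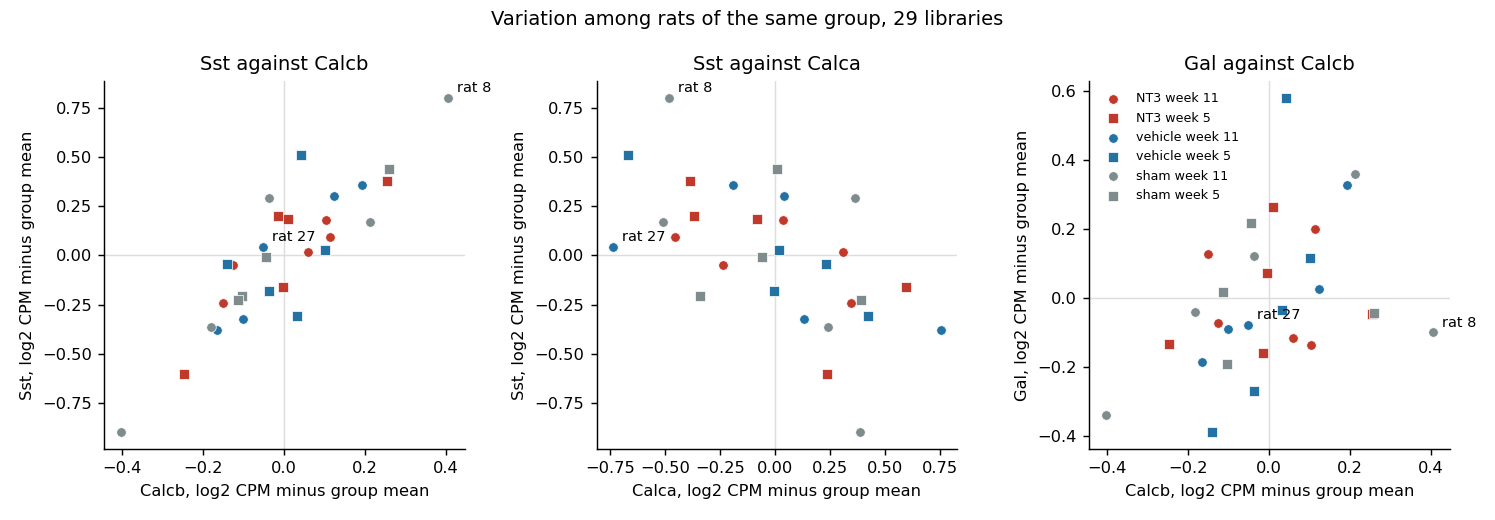
Log2 CPM minus the group mean in 29 libraries: Sst against Calcb, Sst against Calca and Gal against Calcb, coloured by arm and shaped by week. Sst and Calcb line up (r = 0.87), Sst and Calca run in opposite directions (r = -0.60), and Gal follows Calcb loosely (r = 0.39).

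The genes most like each member over the same 29 group-centred libraries were taken from 11009 named transcripts with a mean of at least 1 CPM. For Sst they were Asl (r = 0.96), Khk (0.95) and Pkig (0.95), but 14.3% of the candidates had r over 0.7 with Sst. For Calcb they were Plpp4 (0.92), Fam89a (0.92) and Lgals3 (0.91), with 8.71% over 0.7. For Calca they were Ovol1, Tmem202 and Gpr151 (0.84 each), with 8.32% over 0.7. Sst, Calcb and Calca thus followed patterns that many transcripts shared.

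For Gal the most alike were Trpv4 (r = 0.76), Spon2 (0.74) and C1h11orf24 (0.73), and 0.0636% of candidates passed 0.7, against 1.07% for Cck and 0.0818% for Vip. For Adcyap1 they were Rspo2 (0.67), Ebf4 (0.67) and Gch1 (0.64, but 0.37 without rats 8 and 27), and 0% passed 0.7. For Nppb they were Oprm1, the mu-opioid receptor gene (0.69), Sertad4 (0.59) and C11h22orf39 (0.57). For Vip and Cck the leading values, 0.77 with Padi2 and 0.88 with RT1-A1, were 0.60 and 0.72 without rats 8 and 27.

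The spread of the members between rats differed widely. The biological coefficient of variation that edgeR fitted to each transcript was 0.133 for Calcb, 0.154 for Adcyap1, 0.162 for Gal, 0.257 for Sst, 0.264 for Calca, 0.398 for Nppb and 0.809 for Cck. Calcb stood at percentile 46.6 of all tested transcripts, Gal at 59.7, Sst at 83.4 and Cck at 99.9. From the lowest to the highest library Calcb differed 1.75-fold, Gal 2.20-fold and Sst 3.29-fold.

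The receptors of these peptides were followed as a list of 29 genes, of which 21 were tested. In the 9 comparisons of arms edgeR and DESeq2 called 0. At an unadjusted p under 0.05 edgeR had 0 to 5, the 5 being in vehicle against sham at week 5, where 8.38% of all transcripts passed. Voom called Ramp1 in NT3 against vehicle at week 5, where it called 0.287% of all transcripts. It called Ramp1 and the somatostatin receptor gene Sstr4 in vehicle against sham at week 5 (8.59% of all), and Sstr4 in vehicle against sham over both weeks (0.287% of all). In vehicle rats, 2 were called by edgeR, DESeq2 and voom between week 11 and week 5, both higher at week 11, where these tools called 0.844%, 1.6% and 0.773% of all transcripts: Ramp1, the partner that turns the calcitonin receptor-like receptor into a CGRP receptor, and Vipr1, a receptor for VIP and PACAP. Ramp1 (NM_031645) was at 5.30, 7.0, 5.23, 6.15 and 4.73 CPM in vehicle rats of week 11, against 3.03, 1.68, 2.14, 2.39 and 3.11 CPM in vehicle rats of week 5. These groups did not overlap, but Ramp1 is shown because it was called. Over all tested transcripts, 1.65% of pairs of groups did not overlap. The log2 fold change of Ramp1 was 1.19 (SE 0.22), with an adjusted p of 0.0142 in edgeR.

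The vehicle rats of week 5 were the low group in Ramp1, with a mean of 2.47 CPM, while the other 5 groups averaged between 4.4 and 5.68 CPM. At week 5 Ramp1 differed by 0.83 (SE 0.22, unadjusted p 0.000803, adjusted p 0.458 in edgeR) for NT3 against vehicle and by -0.93 (SE 0.23, unadjusted p 0.000402, adjusted p 0.315) for vehicle against sham. Vehicle against sham differed between the weeks by 1.23 (SE 0.31, unadjusted p 0.000511, adjusted p 0.987 in edgeR). The change over time in vehicle rats lost its call without rat 1 (adjusted p 0.0643), without rat 27 (adjusted p 0.0575) and with the vehicle groups alone in the fit (adjusted p 0.158), at log2 fold changes of 1.27, 1.11 and 1.19. Vipr1 (NM_012685), at 0.513, 1.03, 0.78, 0.55 and 0.43 CPM in vehicle rats of week 11 and 0.108, 0.392, 0.0, 0.0 and 0.231 CPM in vehicle rats of week 5, had at most 14 reads in a library. Its log2 fold change was 2.07 (SE 0.47, adjusted p 0.0311), and the call was lost without any 1 of vehicle rats 27, 33 and 50 of week 11 or 1, 14, 42 and 82 of week 5 (adjusted p between 0.0513 and 0.124).

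Markers of other cells moved with the same comparison. The 9 macrophage markers summed to 133 to 431 CPM in vehicle rats of week 11, with a median of 173 CPM and the maximum in rat 27. In vehicle rats of week 5 they summed to 89.8 to 96.5 CPM, and 6 of 9 were called higher at week 11 by edgeR. Over all transcripts, calls in this comparison fell from 106 to 24 without rats 8 and 27. The marker calls were not repeated without rat 27. The 7 fibroblast markers summed to 962 to 1350 CPM and to 695 to 931 CPM in the same groups, with 0 called. Their maximum at week 11 was also rat 27, where the group's median was 1140 CPM. Col1a2, a fibroblast marker, was listed at 0 in all libraries. The part of these cells in the values of Ramp1 and Vipr1 was not tested.

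The lists of other precursors, of processing genes and of injury genes held no gene called by edgeR in the 12 comparisons of arms or weeks. Of 35 other neuropeptide precursors 21 were tested, and 0 to 2 had an unadjusted p under 0.05 in the comparisons of arms, where the share of all transcripts ran from 1.52% to 16.9%. The highest count was 5, between week 11 and week 5 in vehicle rats, with 8.82% of all. Their median for vehicle against sham at week 11 was -0.14, with 6 higher and 15 lower, and for NT3 against sham -0.20, with 6 higher and 15 lower, where the medians of all transcripts were 0.00 and 0.01. Nmb, the precursor of neuromedin B, had the smallest p in vehicle against sham at week 11 (-0.33, SE 0.13, unadjusted p 0.0194, adjusted p 0.507 in edgeR). Adm, the precursor of the vasodilator adrenomedullin, had the smallest in NT3 against vehicle at week 5 (0.56, SE 0.18, unadjusted p 0.00406, adjusted p 0.692). Nts, the precursor of neurotensin, differed by -1.44 in NT3 against vehicle at week 11, and its highest library was again rat 27, at 7.21 CPM against at most 2.04 CPM in the others.

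Of 24 genes that process or degrade peptides 23 were tested, their medians lay between -0.06 and 0.06 in these comparisons. At an unadjusted p under 0.05 there were 0 to 4, the 4 being in vehicle against sham over both weeks (16.9% of all transcripts) and over time in vehicle (8.82% of all) and sham rats (3.73% of all). Cpd, a carboxypeptidase of the secretory pathway, had the smallest p for vehicle against sham with the weeks averaged (0.33, SE 0.08, unadjusted p 0.000528, adjusted p 0.269 in edgeR). Of 20 genes known to rise after axon injury 18 were tested, and 0 to 4 had an unadjusted p under 0.05, the 4 being over time in vehicle rats (8.82% of all transcripts). Atf3, the injury-induced transcription factor, differed over both weeks by 0.36 (SE 0.13, unadjusted p 0.0129, adjusted p 1.0 in edgeR) in NT3 against vehicle. DESeq2 called none of these 3 lists' genes in the 12 comparisons. Voom called genes of these lists mainly in sham rats between week 11 and week 5, where it called 17.6% of all transcripts and, among them, 2 other precursors, 2 injury genes, and 5 higher and 7 lower processing genes.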

How the data were processed

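Reads were counted per RefSeq transcript after removal of duplicates; the deposited counts are whole numbers without normalization. Per the submitters' processing notes, bcl2fastq 1.8.4, TopHat2, Picard and HTSeq were listed, with rn6 (Rnor_6.0) as build and no roles. Per the labels' protocols, poly-A RNA (RNA integrity above 7.6) was made into stranded libraries; the strand setting of the counting is not given in the sources used here. Symbols came from a RefSeq table of GRCr8 (17090 of 18092 transcripts matched; the rest held 4.56% of counts). Lines for unassigned reads stayed out of library sizes and tests.

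Counts were analysed with edgeR 4.0.16 in R 4.3.3: filterByExpr (minimum count 10, minimum total 15), TMM scaling (factors 0.974 to 1.061), 6 group means fitted to 29 libraries, quasi-likelihood tests of 15 contrasts, Benjamini-Hochberg adjustment over 12556 transcripts, threshold 0.05. The fit had a common coefficient of biological variation of 0.185. Log2 CPM used a prior count of 2. Alternatives were DESeq2 1.42.0, limma 3.58.1 (voom with quality weights), DESeq2 size factors, no filter, contrast groups only, each library left out, rats 8 and 27 left out, a covariate and summed transcripts. The pipeline was tested on simulated data. All 10 members are named; other genes are list members past the threshold or with the smallest p (at most 3 a list and comparison), and the 3 genes most like each member; marker genes were singled out after their values were seen. Members and lists were chosen with earlier results of these data known.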

Additional observations from a re-analysis of the deposited data

Results flagged for a closer look

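Highest and lowest libraries were compared with the rest of their group for the 8 members with reads in 6 groups, 48 cases, of which chance flags about 1 in 20. In 4 cases a library lay far from the others. Vehicle rat 27 of week 11 held 7.83 CPM of Cck (76 reads), where the other 4 held 0.107 to 0.7 CPM. The same rat held 2.06 CPM of Vip (20 reads), where the others held 0.0557 to 0.2 CPM. NT3 rat 83 of week 11 held 0.989 CPM of Nppb (18 reads), where the others held 0.141 to 0.32 CPM. Sham rat 64 of week 5 held 232 CPM of Calcb (4394 reads), where the others held 179 to 188 CPM. The second Calca transcript, NM_001033955, which enters none of the tests, had 58 reads in 23 of 29 libraries. Of 21 tests of the difference between weeks in the 7 tested members, the smallest adjusted p was 0.987 in edgeR, and 2 had an unadjusted p under 0.05, both for Gal.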

How the results depend on the processing

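No member was called in any of the 15 contrasts by edgeR, DESeq2 or edgeR under any other alternative. With limma voom with quality weights 2 members were called in sham rats between week 11 and week 5, Calcb (-0.26, adjusted p 0.0331) and Gal (0.35, adjusted p 0.046), in a contrast where that method called 2209 of all transcripts and edgeR 0; the cause was not tested. That called value of Calcb moved by more than the standard error from -0.10 (SE 0.12) in edgeR. Besides the 2 values called by voom, 60 of 3750 member values under the alternatives moved by more than the standard error, 21 of them for Cck. A change of sign was found in 274, none of them called. Calls over all transcripts for week 11 against week 5 in vehicle rats numbered 106 in edgeR, 201 in DESeq2, 24 without rats 8 and 27, 0 with those groups alone, and 1 to 214 when 1 library was left out, with 1 without rat 1 and 214 without rat 57. Vehicle against sham at week 5 had 0 calls in edgeR, 10 in DESeq2, 1 with those groups alone and 1079 in voom, and with the weeks averaged 0, 4 in DESeq2 and 36 in voom. NT3 against vehicle at week 5 had 36 calls in voom. No paired analysis was possible because each rat number belongs to 1 library. Low counts limit Nppb, Vip and Cck, and a listed 0 limits Tac1 and Npy.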
